A study of Mus musculus with 6 samples.

Results

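The response of cells to low oxygen was examined through 10 genes of the hypoxia pathway, Hif1a, Epas1, Egln1, Egln3, Vegfa, Adm, Bnip3, Ddit4, P4ha1 and Ankrd37. They were taken by symbol from the 34245 genes of the RNA-seq table, in which each of the 10 occurs once. The study followed the lymphomas of mice with a single functional allele of Dnmt3b, which encodes a de novo DNA methyltransferase. Gene expression was measured by RNA-seq in 3 Dnmt3b+/- peripheral T-cell lymphomas (PTCL), numbered here as tumors 1, 2 and 3 as the authors number them. Whole-genome bisulfite sequencing, with 2 Dnmt3b+/- and 1 Dnmt3a-/- PTCL in the series, was not analysed here. The tumors were taken from lymph nodes of terminally sick mice of the FVB strain, whose ages the labels do not give. The mice carried a conventional knockout allele of Dnmt3b, so that all their cells were heterozygous, those around the lymphoma cells included. The labels describe the 3 samples as independent without naming the animals, so the SD measures the spread between these samples. No library of normal T-cells was used, and levels below are therefore compared only between these tumors and between genes within them.

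In normal oxygen the EGLN prolyl hydroxylases mark the HIF alpha subunits, which are then bound by VHL and degraded. In low oxygen these hydroxylases slow down, the alpha subunits pair with ARNT, and the dimer binds short core motifs near genes of glycolysis, blood vessel growth, mitophagy and matrix synthesis. In T-cells HIF1A is also raised by antigen receptor and mTORC1 signaling, and because HIF is controlled largely at the level of protein, mRNA alone does not read its activity.

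The values are FPKM, the fragments on a gene divided by the length of its exons and by the size of the library. The sizes, estimated from the values of genes without a read, were 30726570, 18969988 and 20770928 reads for tumors 1, 2 and 3, of which 20261130, 12481487 and 13691977 lay on genes. Ddit4 had the highest mean of the 10 genes, 71.9 FPKM, followed by Hif1a with 18.6, P4ha1 with 14.6 and Egln1 with 13.6 FPKM. The ranges of these last 3 genes over the tumors overlap, whereas Ddit4 was above each of them in every tumor. Ankrd37, Vegfa, Bnip3 and Epas1 had means of 2.25, 1.95, 1.74 and 1.23 FPKM, with overlapping ranges, and Egln3 and Adm had means of 0.879 and 0.363 FPKM. Hif1a, Egln1, Ddit4, P4ha1 and Ankrd37 were at or above 1 FPKM in every tumor, 5 of the 10 genes, where 28.4% of the 34245 genes were. Without tumor 3 this number was 8.

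**Figure D1:**
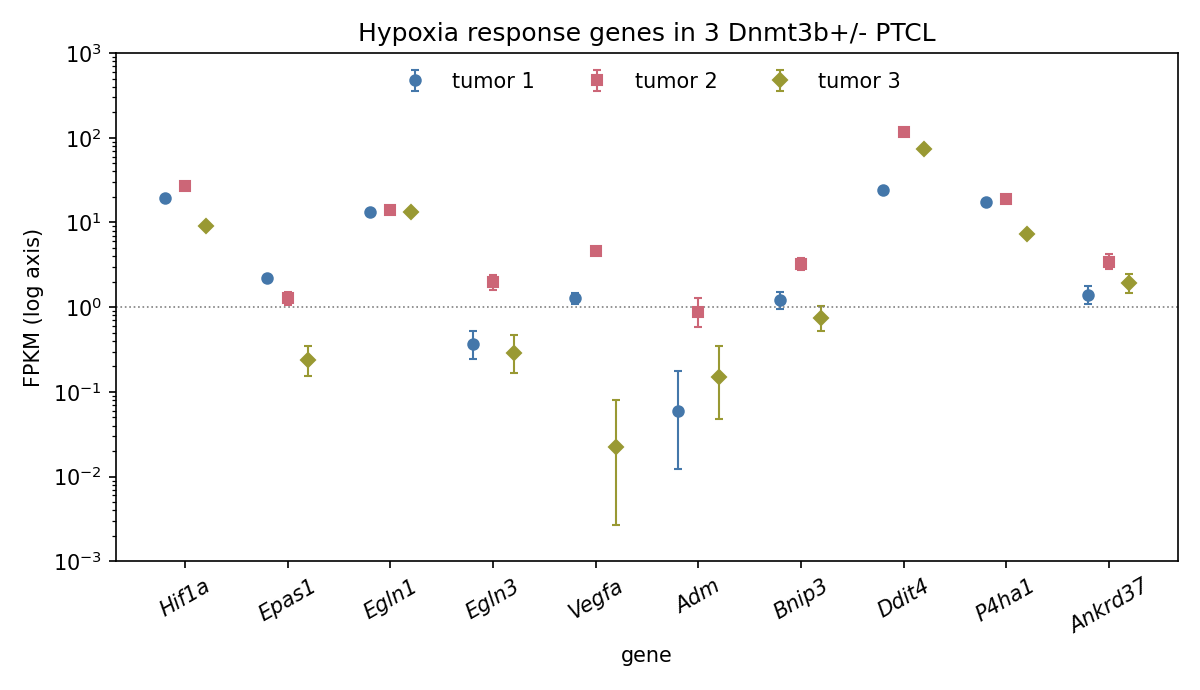
FPKM (log axis) of the 10 hypoxia response genes in tumors 1, 2 and 3, with points for the deposited values, bars for exact 95% Poisson intervals of the recovered reads and a dotted line at 1 FPKM. Tumor 2 has the highest point for all genes but Epas1, though for Egln1 and P4ha1 tumor 1 does after rescaling to equal sums, and the 3 points of Egln1 lie together near 13.6 FPKM.

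As deposited, FPKM was highest in tumor 2 for 9 of the 10 genes and lowest in tumor 3 for 6, but once every tumor was brought to a total of 1000000 these numbers were 7 and 7, with Egln1 and P4ha1 then highest in tumor 1. For comparisons with all genes a mean of at least 1 FPKM was required, which 11197 genes reached, among them 8 of the 10, all but Egln3 and Adm. Tumor 2 was the highest tumor for 7 of these 8 genes, against 33.7% of the 11197, and tumor 3 the lowest for 5 of the 8, against 37.4%. The highest tumor was at least 2-fold above the lowest for 7 of the 8, Egln1 being the exception, against 34.4% of all genes. Without tumor 2, and with the required mean applied again, this number was 4, and Vegfa and Bnip3, then below that mean, were not counted. The median ratio of highest to lowest tumor was 3.67 over the 8 genes, 4.57 over the 10 and 1.68 over the 11197.

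The pairs of tumors differed in direction. At least 2-fold higher in tumor 2 than in tumor 1 were 4 of the 8 genes, where 10.1% of all genes were, and none of the 8 was at least 2-fold lower, against 15.1%. At least 2-fold higher in tumor 2 than in tumor 3 were 5 of the 8, against 11.3%, and in the opposite direction there was none, against 5.11%. Tumor 1 was at least 2-fold above tumor 3 for 4 of the 8, against 13.3%, and at least 2-fold below it for 1, Ddit4, against 4.45%. Vegfa and Bnip3 were at least 2-fold higher in tumor 2 than in both other tumors, 2 of the 8 genes, where 5.55% of all genes were. Both reached the required mean only through tumor 2, since without it their means were 0.649 and 0.975 FPKM, so this number, like the others that include them, is a description and is not read against the share of all genes. Epas1 likewise reached it only through tumor 1. Below the required mean, Egln3 and Adm met the criterion too. The median log2 ratio of tumor 2 to tumor 1 was 0.89 over the 8 genes and 1.37 over the 10, where that over the 11197 genes was -0.18. For tumor 2 over tumor 3 these medians were 1.46, 1.85 and 0.06, and for tumor 1 over tumor 3 they were 0.90, 0.52 and 0.24.

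**Figure D2:**
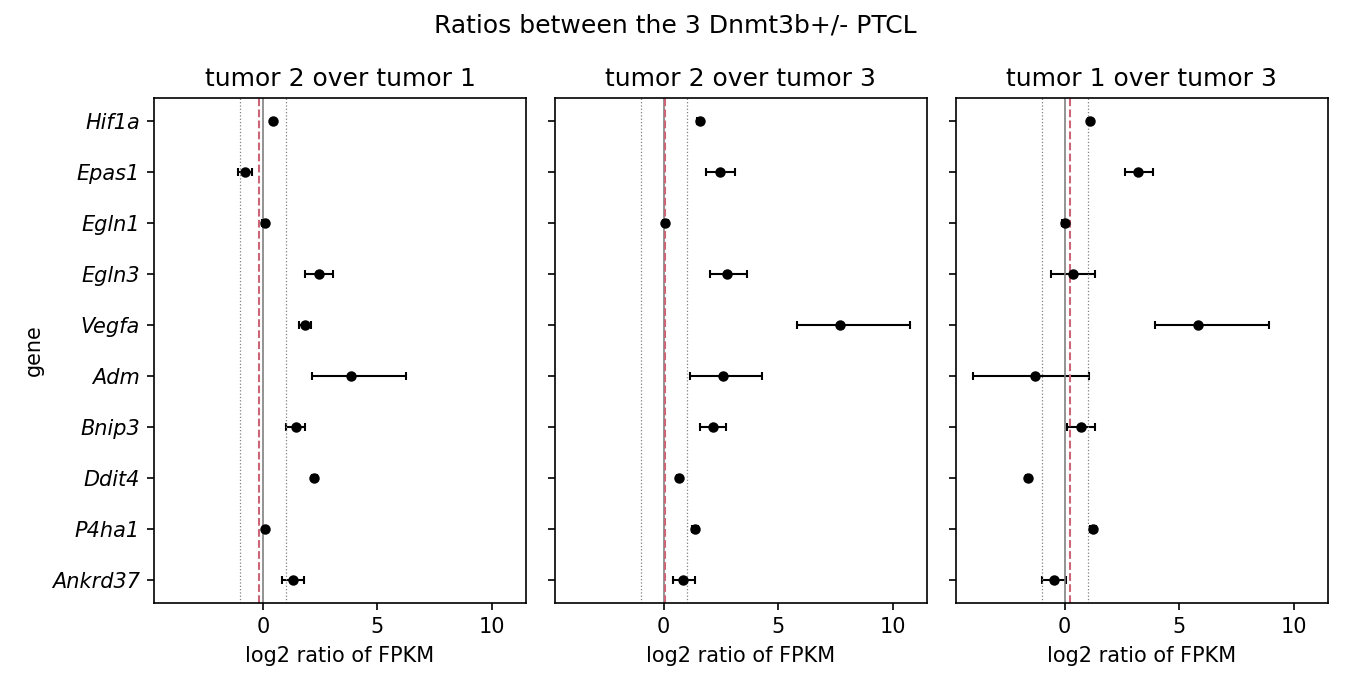
Log2 ratio of deposited FPKM between each pair of tumors for the 10 genes, with exact 95% binomial intervals of the recovered reads as bars, dotted lines at a 2-fold difference and a dashed line at the median of 11197 genes with a mean of at least 1 FPKM. Against tumor 1, Ddit4, Egln3, Vegfa, Adm, Bnip3 and Ankrd37 lie above the 2-fold line in tumor 2, whereas Egln1 stays at 0.08.

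Hif1a (ENSMUSG00000021109; mm10, chr12:73901375-73947530) encodes the oxygen-regulated subunit of HIF-1. In tumors 1, 2 and 3 it reached 19.6, 27.0 and 9.15 FPKM, on 3547, 3025 and 1120 reads, with a mean of 18.6 ± 8.99 (SD, n = 3). Tumor 3 was thus the lowest, and tumor 2 was 2.96-fold above it, with a 95% binomial interval of 2.76 to 3.17. All such intervals come from exact limits on the reads and cover counting error only. The samples are whole lymph node tumors, in which fewer cells of a type and less RNA per cell cannot be told apart. Of the exon bases of Hif1a, 148 are shared with Gm49321 on the same strand and 330 with the antisense gene Gm15283. Gm49321 had 12.1, 18.5 and 9.95 FPKM and Gm15283 3.78, 6.77 and 1.96 FPKM, both in the order of tumors of Hif1a, and their part in its values was not tested. Use of strand in counting is not given in the sources used here.

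Epas1 (ENSMUSG00000024140; chr17:86753907-86833410) encodes HIF-2 alpha, which in many tissues is strongest in endothelium, macrophages and stroma. Its level was 2.18, 1.28 and 0.236 FPKM in the same order of tumors, on 356, 129 and 26 reads, with a mean of 1.23 ± 0.974 (SD, n = 3). As deposited it was the only one of the 10 genes with its highest value in tumor 1, joined by Egln1 and P4ha1 after rescaling to equal sums. Tumor 1 was 9.26-fold above tumor 3 (95% binomial interval, 6.21 to 14.4), and without tumor 1 its mean was 0.758. Hif1a exceeded Epas1 in FPKM 8.97-fold in tumor 1, 21.1-fold in tumor 2 and 38.8-fold in tumor 3. In sum, macrophage markers had the order of Epas1, although Cd68 was highest in tumor 2. Summed over a list of 10, with a mean of at least 1 FPKM for all 10, they had 440.8, 148 and 36.9 FPKM in tumors 1, 2 and 3, with Lyz2 as the most abundant, and none of the 10 was without a read in any tumor. Adgre1, Mrc1, Cd14 and Msr1 reached that mean only through tumor 1. Endothelial markers summed to 18.2, 21.1 and 5.83 FPKM, highest in tumor 2, although Pecam1 was highest in tumor 1. Fibroblast markers without Thy1, which T-cells also express, summed to 11.8, 43.5 and 0.381 FPKM, highest in tumor 2 largely through Col1a1, Col1a2 and Col3a1. The part of macrophages, endothelium or stroma in the values of Epas1 was not tested.

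The rest of the HIF machinery was described in the same way. Of 15 further listed genes, which encode HIF subunits, hydroxylases, the VHL and SIAH ubiquitin ligases, coactivators and a HIF inhibitor, 13 had a mean of at least 1 FPKM. For 3 of the 13, the ubiquitin ligase genes Eloc and Siah1a and the HIF inhibitor gene Cited2, the highest tumor was at least 2-fold above the lowest, where 34.4% of all genes had such a ratio. Highest in tumor 2 were 8 of the 13, or 7 after rescaling to equal sums, where 33.7% of all genes were as deposited. Arnt, which reached the required mean, was lowest in tumor 2, with 5.50, 3.46 and 3.64 FPKM. Below that mean, Arnt2, for another partner of the alpha subunits, had 0.423, 0.0411 and 0.351 FPKM, on 100, 6 and 56 reads. The median log2 ratio over the 13 was 0.15 for tumor 2 to tumor 1 and also 0.15 for tumor 2 to tumor 3. Genes that spell out a small number, as Eloc, Siah1a and Cited2 do here, were named after their values were seen, as were Arnt and Arnt2. Elob, a subunit of the VHL ligase, was the most abundant of the list with 83.4, 128 and 96.5 FPKM, and Rbx1, the RING subunit of that ligase, had 26.9, 28.5 and 27.8 FPKM. Vhl itself, also named after its values were seen, had 6.04, 5.77 and 5.49 FPKM.

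Egln1 (ENSMUSG00000031987; chr8:124908587-124949324) encodes PHD2, the main oxygen sensor of the pathway. The 3 tumors had 13.4, 14.2 and 13.4 FPKM of it, on 1476, 965 and 1002 reads. Its mean of 13.6 ± 0.440 (SD, n = 3) had the smallest spread of the 10 genes, 3.22% of the mean. The ratio of its highest to its lowest tumor was 1.06 with a binomial interval of 0.975 to 1.15, so that with the deposited scaling no difference was detectable at this depth. After rescaling to equal sums tumor 1 was the highest, 1.18-fold above tumor 3 with an interval of 1.09 to 1.28, and with median-of-ratios factors tumor 2 was 1.19-fold above tumor 1 (1.10 to 1.30), so that the scaling decides whether counting error covers the difference.

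Egln3 (ENSMUSG00000035105; chr12:54178981-54203860) encodes PHD3, a hydroxylase that HIF induces in many cell types as part of a feedback. Its values were 0.367, 1.98 and 0.289 FPKM on 30, 100 and 16 reads, with a mean of 0.879 ± 0.955 (SD, n = 3), and without tumor 2 the mean was 0.328. Tumor 2 stood above both others, 5.40-fold over tumor 1 (95% binomial interval, 3.56 to 8.41) and 6.84-fold over tumor 3 (4.01 to 12.4), while the interval between tumors 1 and 3 included a ratio of 1. In FPKM, Egln1 exceeded Egln3 36.4-fold, 7.15-fold and 46.4-fold in tumors 1, 2 and 3. Egln2, the remaining EGLN gene, was named after its values were seen and had 8.31, 11.9 and 10.7 FPKM.

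Because several of these genes had their highest value in the same tumor, their promoters were searched for the core of the HIF binding motif, ACGTG or GCGTG, on both strands. RefSeq promoters of GRCm38.p6 were found for 9 of the 10 genes, and the 250 bases before the transcription start were searched. The palindrome CACGTG holds ACGTG on each strand and was counted on both. At least 1 match was present upstream of the outermost start of every gene of the 9 except Vegfa, where 38.6% of 32851 promoters had one. The motif contains a CpG, and these 9 windows held 7 to 51 CpGs, above the median of 6 over all promoters, so the shares compare windows of unlike CpG content. Bnip3 had 5 matches, Ankrd37 4, Hif1a and P4ha1 3 each, Egln1, Adm and Ddit4 2 each and Egln3 1, and 6.58% of all promoters had 3 or more. The starts used for Hif1a and Ankrd37 lie 6492 and 5857 bases inside the annotated genes. A further RefSeq start inside Vegfa had 2 matches, in a window that is largely exon. Methylation of the CpG in the motif is known to hinder HIF binding, and methylation was not analysed here. Stretches of 60 bases outside annotated exons are shown 5′ to 3′ on the gene's strand for the 8 genes with a match upstream of that start, so that genes that differed between tumors can be read beside the near-constant Egln1, with the matches, or their reverse complements CACGT and CACGC, in capitals.
Hif1a (chr12:73907705-73907764, plus strand): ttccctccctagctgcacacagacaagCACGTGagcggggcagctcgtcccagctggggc
Egln1 (chr8:124949349-124949408, minus strand): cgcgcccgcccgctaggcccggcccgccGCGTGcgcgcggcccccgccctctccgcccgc
Egln3 (chr12:54204056-54204115, minus strand): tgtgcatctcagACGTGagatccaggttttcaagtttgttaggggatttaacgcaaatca
Adm (chr7:110627558-110627617, plus strand): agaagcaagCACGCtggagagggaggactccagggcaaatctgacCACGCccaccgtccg
Bnip3 (chr7:138909582-138909641, minus strand): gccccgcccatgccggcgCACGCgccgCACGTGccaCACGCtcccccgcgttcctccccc
Ddit4 (chr10:59951856-59951915, minus strand): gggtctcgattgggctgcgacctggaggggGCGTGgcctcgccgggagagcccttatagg
P4ha1 (chr10:59323124-59323183, plus strand): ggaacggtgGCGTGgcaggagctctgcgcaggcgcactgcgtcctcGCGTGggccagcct
Ankrd37 (chr8:45999972-46000031, minus strand): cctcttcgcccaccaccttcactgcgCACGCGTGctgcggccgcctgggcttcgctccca
Bnip3 had 3 separate matches within its 60 bases, the central one being the palindrome. In Ankrd37 matches on opposite strands overlapped. Egln1 also had matches, although its level differed little between tumors. A match describes the letters of a promoter and not the binding of a factor.

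**Figure D3:**
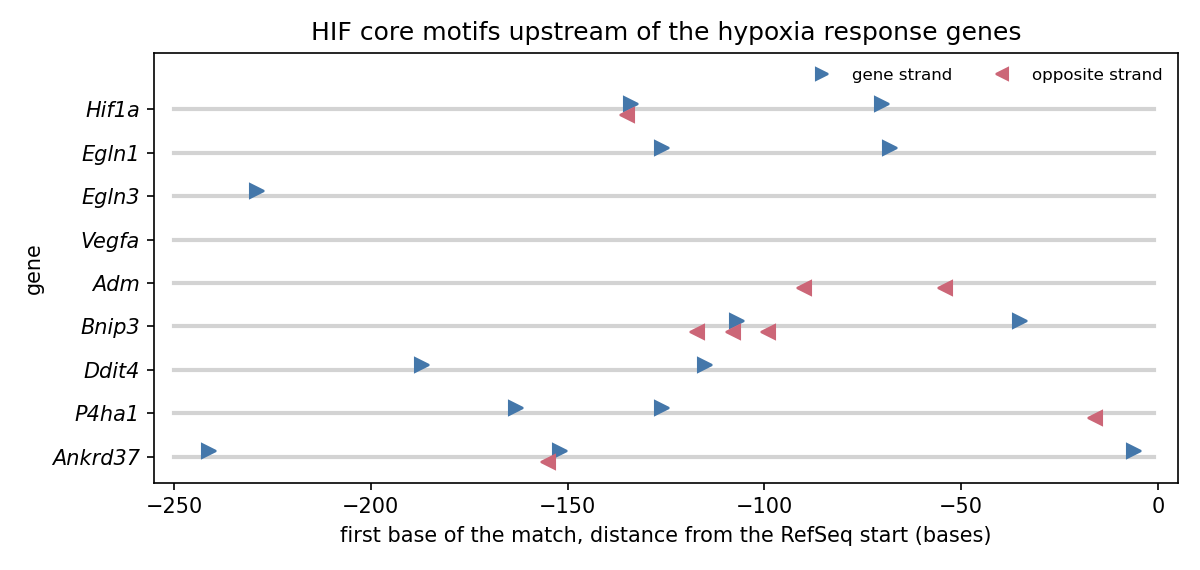
Positions of the HIF core motifs in the 250 bases upstream of the outermost RefSeq start of 9 genes, as distance of the first base of the match from the start in bases. Triangles pointing right are matches on the gene's strand and those pointing left are on the opposite strand, and the line of Vegfa carries none.

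Vegfa (ENSMUSG00000023951; chr17:46016993-46032369), the growth factor that HIF induces to recruit blood vessels, had 1.28, 4.56 and 0.0225 FPKM in tumors 1, 2 and 3, on 168, 371 and 2 reads. It was high in tumor 2, intermediate in tumor 1 and almost without reads in tumor 3. Tumor 2 was 3.58-fold above tumor 1, with a 95% binomial interval of 2.97 to 4.32. Against tumor 3 the ratio was 203, with a binomial interval of 55.8 to 1683. The mean was 1.95 ± 2.35 FPKM (SD, n = 3), a spread larger than the mean, and without tumor 2 it was 0.649.

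Most other genes of the VEGF and angiopoietin system had means below 1 FPKM, but those of Vegfb and Nrp2, 4.33 and 3.34 FPKM, were above that of Vegfa. Of 12 further listed genes 3 had a mean of at least 1 FPKM, and all 3 were at least 2-fold higher in tumor 2 than in both others, where 5.55% of all genes were. Vegfd reached the required mean only through tumor 2, so that its place in this number was set by the filter. The genes below that mean were divided as deposited and were named after their values were seen. Nrp1, Kdr, Pgf and Tek were highest in tumor 1, and Vegfc, Flt1, Flt4 and Angpt2 in tumor 2. Reads were few for Pgf (14, 7 and 0), Tek (16, 8 and 4) and Vegfc (10, 16 and 0). The values of Angpt1 lay below the FPKM of 3 reads in every tumor and are not read as levels. Vegfb had 3.02, 7.49 and 2.49 FPKM, and Nrp2, a coreceptor, had 1.93, 5.45 and 2.65 FPKM. Vegfd, a ligand of lymphatic vessels, was detected almost only in tumor 2, with 241 reads and 5.28 FPKM against 1 read in each of the other tumors. Endothelial markers moved with these genes in part. A mean of at least 1 FPKM was found for 3 of 10, Pecam1, Eng and Egfl7, and the sum over the 10 was 18.2, 21.1 and 5.83 FPKM. Pecam1, also expressed by leukocytes, was the most abundant and made up most of this sum. It had 12.2, 10.9 and 4.86 FPKM and was highest in tumor 1 as deposited. Eng and Egfl7, which reached that mean only through tumor 2, were highest there. Cldn5 had no read in tumor 3. Kdr and Tek belong to both lists. The part of endothelial cells was not tested.

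Adm (ENSMUSG00000030790; chr7:110627661-110629820) encodes adrenomedullin, a vasodilating peptide induced in low oxygen. Its mean was the lowest of the 10 genes, at 0.363 ± 0.449 FPKM (SD, n = 3), and was 0.104 without tumor 2. The values of tumors 1, 2 and 3 were 0.0603, 0.879 and 0.149 FPKM, on 3, 27 and 5 reads. In tumor 3 Vegfa was lower, with 0.0225 FPKM. Tumor 2 was again the highest, by 14.6-fold over tumor 1 (95% binomial interval, 4.49 to 75.1) and by 5.91-fold over tumor 3 (2.24 to 19.7). Tumors 1 and 3 could not be told apart at these numbers of reads. Receptor genes for adrenomedullin differed in their order of tumors. Of 5 further listed genes of the system, Calcrl, the receptor, had 2.05, 0.486 and 1.37 FPKM, Ramp1 2.42, 0.750 and 0.605 and Ramp2, its main partner for adrenomedullin, 13.0, 11.8 and 13.1, and none of these 3, which had means of at least 1 FPKM, was highest in tumor 2, where 33.7% of all genes were. Calcrl and Ramp1 reached that mean only through tumor 1, so that the filter had a part in this. Ramp3, the other receptor partner, was below that mean and highest in tumor 2, with 0.873, 1.38 and 0.523 FPKM on 37, 36 and 15 reads, and was named after its values were seen.

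Bnip3 (ENSMUSG00000078566; chr7:138890836-138909519), which encodes a mitochondrial receptor for mitophagy, was measured at 1.21, 3.26 and 0.744 FPKM in tumors 1, 2 and 3, on 84, 140 and 35 reads. The mean was 1.74 ± 1.34 (SD, n = 3), and 0.975 without tumor 2. Tumor 2 was 2.70-fold above tumor 1 (95% binomial interval, 2.05 to 3.58) and 4.38-fold above tumor 3 (3.01 to 6.54). Of its exon bases, 504 are shared with the antisense gene Gm45507, which had 1.5, 2.84 and 0.835 FPKM in the same order, and whose reads there cannot be told apart from those of Bnip3 without the strand. Its paralog Bnip3l, also a mitophagy receptor and a HIF target, was far more abundant, with 19.5, 13.2 and 19.8 FPKM, and was lowest in tumor 2. Bnip3l exceeded Bnip3 in FPKM 16.1-fold, 4.05-fold and 26.6-fold in tumors 1, 2 and 3.

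Of 8 further listed mitophagy genes, 7 had a mean of at least 1 FPKM, and 4 of these, Sqstm1, Pink1, Map1lc3a and Map1lc3b, were highest in tumor 2, with Becn1 in place of Map1lc3b under median-of-ratios scaling, where 33.7% of all genes were as deposited. Map1lc3a reached the required mean only through tumor 2, so that its place in this number was set by the filter. Sqstm1, an autophagy adaptor, was the most abundant with 21.8, 35.0 and 26.7 FPKM, and Becn1, which acts early in autophagy, had 14.0, 12.7 and 12. Fundc1, another mitophagy receptor linked to hypoxia, had the opposite order to Bnip3, with 8.11, 2.06 and 12.6 FPKM.

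Ddit4 (ENSMUSG00000020108; chr10:59949669-59951834) encodes REDD1, which restrains mTORC1 when oxygen or energy is short and is also induced by glucocorticoids and by the integrated stress response. Tumors 1, 2 and 3 had 24.5, 117 and 74.6 FPKM, on 1320, 3883 and 2721 reads, with a mean of 71.9 ± 46.1 (SD, n = 3). Tumor 1 was the lowest, unlike for Hif1a. Tumor 2 was 4.76-fold above tumor 1 (95% binomial interval, 4.48 to 5.08) and 1.56-fold above tumor 3 (1.49 to 1.64). In FPKM, Ddit4 exceeded Hif1a 1.25-fold, 4.31-fold and 8.16-fold in the 3 tumors.

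The other inducers of Ddit4 were represented by separate lists. Of 8 genes of the integrated stress response 4 had a mean of at least 1 FPKM, with 2, Atf4 and Ddit3, highest in tumor 2. In this and the following lists the numbers highest in tumor 2 stand beside 33.7% of all genes. Among them Ddit3, a transcription factor of this response, had 4.84, 23.7 and 9.86 FPKM, the order of Ddit4, and Atf4, which acts upstream of it, had 30.8, 47.5 and 30.6 FPKM. Ppp1r15a, which acts in feedback on the response, was instead highest in tumor 3, with 2.85, 3.84 and 8.90 FPKM. Sesn2 was also highest there, with 1.92, 3.25 and 3.64 FPKM. Below the required mean, Asns was lowest in tumor 2, with 0.785, 0.0771 and 0.528 FPKM on 66, 4 and 30 reads. Trib3 and Vldlr, also below it, were highest in tumor 2 and Chac1 in tumor 3. Sesn2 and the genes below that mean were named after their values were seen. Of 8 glucocorticoid response genes 7 had such a mean, and 2 of these, Per1 and Dusp1, were highest in tumor 2. Klf9, named after its values were seen, had 0.838, 1.02 and 1.22 FPKM and reached the required mean only through tumor 3, so that the filter had a part in this. Tsc22d3 and the receptor gene Nr3c1 varied little, with 21.3, 17.9 and 19.6 and with 9.26, 7.58 and 10.1 FPKM, whereas Fkbp5 was highest in tumor 1 with 13.8, 5.88 and 6.01 FPKM and Sgk1 highest in tumor 3 with 12.1, 9.73 and 23.3 FPKM. Of 10 further genes around REDD1 and mTORC1, 9 had such a mean and 5 of these, Tsc1, Tsc2, Mtor, Rptor and Sesn1, were highest in tumor 2, with Sesn3 added to them after rescaling to equal sums. Rptor, the scaffold of mTORC1, had 3.02, 7.89 and 5.07 FPKM, the same order as Ddit4, whereas Txnip, the most abundant of this list, had 103.8, 65.6 and 149 FPKM and Sesn3 had 6.84, 9.98 and 10.1 FPKM.

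P4ha1 (ENSMUSG00000019916; chr10:59323296-59373304) encodes a catalytic subunit of the collagen prolyl 4-hydroxylase, an enzyme of the endoplasmic reticulum that is distinct from the EGLN enzymes. It was present at 17.5, 18.9 and 7.41 FPKM in the 3 tumors, on 2215, 1477 and 633 reads, with a mean of 14.6 ± 6.28 (SD, n = 3). Tumors 1 and 2 were close, with tumor 1 the higher after rescaling to equal sums, and tumor 2 was 2.55-fold above tumor 3 (95% binomial interval, 2.33 to 2.81). P4hb, which encodes the other subunit and is also a general protein disulfide isomerase, had 100.7, 66.3 and 45.1 FPKM. Of 7 further genes for collagen hydroxylases 3 had a mean of at least 1 FPKM, P4hb, Plod1 and Plod3, and all 3 were lowest in tumor 3, where 37.4% of all genes were. Plod1 had 1.59, 2.11 and 0.726 FPKM and Plod3 5.24, 5.0 and 2.96. The alternative subunit gene P4ha2, named after its values were seen, had 122, 57 and 1 reads, with 0.636, 0.482 and 0.00772 FPKM.

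Most fibroblast markers had few reads in tumor 3, where P4ha1 had 633. Of 9 fibroblast markers 5 had a mean of at least 1 FPKM, and the sum over the 9 was 165.7, 67.8 and 32.2 FPKM. Thy1, the most abundant, which T-cells of the mouse also express, made up 153.9, 24.3 and 31.9 FPKM of it. Without Thy1 the sum over 8 markers was 11.8, 43.5 and 0.381 FPKM. Pdgfra, Lum and Fbln1 had no read in tumor 3, and Col3a1 had 560, 2670 and 1 reads. Col1a1, with 328, 1930 and 43 reads, made up 0.315 FPKM of the sum of tumor 3. The lead of tumor 2 in this sum came largely from Col1a1, Col1a2 and Col3a1. Without these 3 and Thy1 the sum over 5 markers was 7.01, 6.24 and 0.0490 FPKM, close between tumors 1 and 2. Of these 5, Dcn and Lum were highest in tumor 1, with 5.04, 3.27 and 0.00825 and with 1.28, 0.646 and 0.0177 FPKM. The other 3 were highest in tumor 2, Pdgfrb with 0.380, 1.59 and 0.00879 FPKM, Pdgfra with 0.25, 0.531 and 0.00432 and Fbln1 with 0.0596, 0.205 and 0.00992. The collagen genes and these 3 had the order of tumors of Vegfa, Bnip3, Egln3, Hif1a and, as deposited, P4ha1, and the part of fibroblasts in these values was not tested.

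Ankrd37 (ENSMUSG00000050914; chr8:45996902-46005707), an ankyrin repeat gene that is a known direct target of HIF-1, stood at 1.40, 3.46 and 1.91 FPKM in tumors 1, 2 and 3, on 66, 101 and 61 reads, with a mean of 2.25 ± 1.07 (SD, n = 3). Tumor 2 was 2.48-fold above tumor 1 (95% binomial interval, 1.80 to 3.43) and 1.81-fold above tumor 3 (1.31 to 2.53), and the interval between tumors 1 and 3 included a ratio of 1. Its exons share 349 bases with Lrp2bp and 57 with Ufsp2, both on the opposite strand. Lrp2bp had 0.135, 0.523 and 0.178 FPKM and Ufsp2 3.66, 2.00 and 2.52 FPKM.

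A list of 35 other HIF target genes was set beside these. A mean of at least 1 FPKM was reached by 27, of which 15 were highest in tumor 2, or 14 to 16 under the other scalings, and 15 lowest in tumor 3, where 33.7% and 37.4% of all genes were as deposited. The highest tumor was at least 2-fold above the lowest for 14 of the 27, where 34.4% of all genes had such a ratio. At least 2-fold higher in tumor 2 than in tumor 1 were 6, against 10.1% of all genes, and the other way 3 (Hmox1, Stc2 and Ero1l), against 15.1%. Between tumor 2 and tumor 3 these numbers were 9, against 11.3%, and 1 (Ier3), against 5.11%. Between tumor 1 and tumor 3 they were 7, against 13.3%, and none, against 4.45%. The median log2 ratio of tumor 2 to tumor 1 was 0.33 and that of tumor 2 to tumor 3 was 0.60, both above the medians of all genes. The 3 most abundant were Mif, a cytokine, with 101.6, 244 and 142.6 FPKM, the glycolytic enzyme gene Pgk1 with 84.7, 169 and 139 FPKM, and Ldha, for lactate dehydrogenase, with 134, 132 and 104 FPKM. At least 2-fold higher in tumor 2 than in both others were 4 genes, against 5.55% of all genes, named after their values were seen. They were Ndrg1 with 1.46, 6.64 and 1.10 FPKM, the chemokine receptor gene Cxcr4 with 18.6, 62.0 and 25.7, Pfkfb4, which reached the required mean only through tumor 2, with 0.748, 1.87 and 0.711, and the lipid droplet gene Plin2 with 3.25, 7.70 and 1.58. The widest ratios among the 27 belonged to genes of iron and heme metabolism with another order of tumors. Hmox1, for heme oxygenase, had 15.5, 4.82 and 1.15 FPKM, and Tfrc, the transferrin receptor, had 31.9, 20.8 and 5.04 FPKM, both highest in tumor 1.

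**Figure D4:**
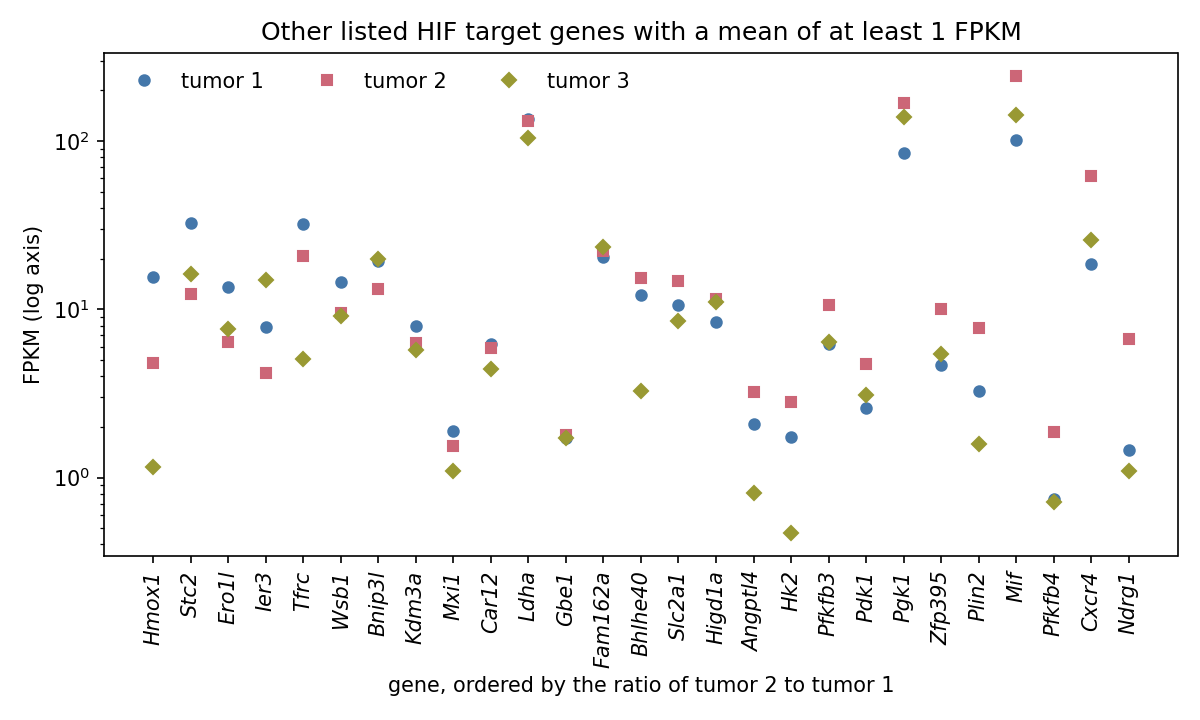
FPKM (log axis) in tumors 1, 2 and 3 of the 27 other listed HIF target genes with a mean of at least 1 FPKM, ordered by the ratio of tumor 2 to tumor 1. Hmox1, at the left, is highest in tumor 1, Cxcr4 and Ndrg1, at the right, are highest in tumor 2, and the 3 points of Ldha lie between 104 and 134 FPKM.

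The T-cell label was checked against 11 markers of T-cells. All 11 had a mean above 1 FPKM and reads in every tumor, with sums of 1654, 1307 and 1746 FPKM and Cd8b1 as the most abundant, at 434.7, 166 and 443.4 FPKM. Tumor 2 had the lowest sum, but 5 of the 11, Cd3e, Cd3g, Cd5, Lck and Trac, were highest in tumor 2, or 4 without Lck under median-of-ratios scaling, where 33.7% of all genes were as deposited. The median log2 ratio over the 11 was 0.29 for tumor 2 to tumor 1 and -0.05 for tumor 2 to tumor 3. Adipocyte and pancreatic acinar markers were highest in tumor 2, the tumor in which 9 of the 10 hypoxia genes were highest as deposited and 7 after rescaling to equal sums. The 6 adipocyte markers, none with a mean of 1 FPKM, summed to 1.25, 6.37 and 0.146 FPKM, with Fabp4 as the most abundant, and Adipoq, Plin1, Cidec and Lep had no read in tumor 3. The 8 acinar markers, all with a mean of at least 1 FPKM, summed to 83.6, 430.2 and 0.653 FPKM, with Ctrb1 as the most abundant, and Ctrb1 and Cel had no read in tumor 3. The part of these tissues in the values of the hypoxia genes was not tested.

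**Figure D5:**
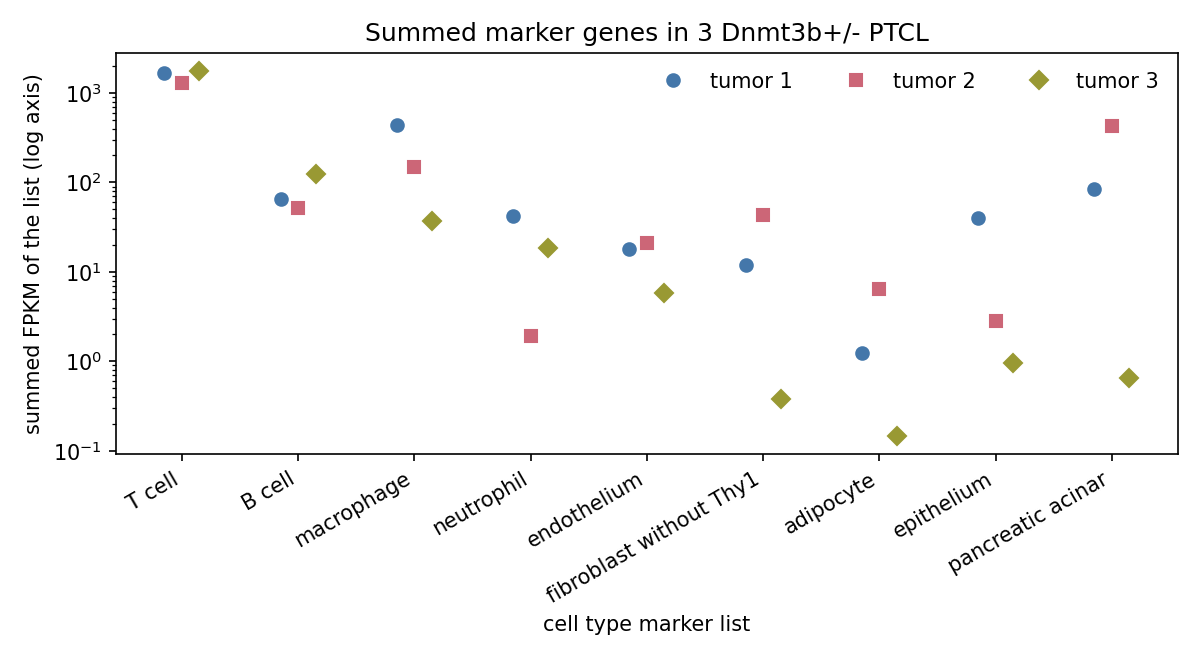
Summed FPKM (log axis) of each cell type marker list in tumors 1, 2 and 3, with Thy1 left out of the fibroblast list. T-cell markers lie at 1307 FPKM or higher in all 3 tumors, whereas adipocyte, pancreatic acinar and, largely through 3 collagen genes, fibroblast markers are highest in tumor 2, and these other sums are lowest in tumor 3.

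The genes with the tumor profiles nearest to those of Hif1a and Vegfa were sought among all 11197 genes, by the Euclidean distance between log2(FPKM + 0.1) values centred on their mean over the 3 tumors. For Hif1a they were Traj2, a T-cell receptor alpha joining segment with 6.41, 8.79 and 2.92 FPKM, B430218F22Rik and Gm45051, at distances of 0.0145, 0.0256 and 0.0521. For Vegfa they were the chemokine gene Cxcl10 with 8.14, 22.5 and 0.663 FPKM, the collagen gene Col6a2 with 1.19, 3.25 and 0.00520 FPKM and the homeobox gene Hoxa6 with 2.16, 5.13 and 0.0551 FPKM, at distances of 0.274, 0.277 and 0.398. Within a distance of 0.1 there were 10 genes for Hif1a, 331 for the near-constant Egln1 and none for Vegfa. With 3 tumors such likeness describes these samples only.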

How the data were processed

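RNA-seq of 3 Dnmt3b+/- PTCL was used. As the study's methods state, reads were trimmed, mapped to mm10 by STAR and, at a mapping quality of 50 or more, quantified in SeqMonk; the authors deposited FPKM, linear and separate for each tumor. Genes lacking reads carry the FPKM of 0.9 read, which gave each library's depth. Reads were then recovered from GENCODE M21 exon lengths, and within 0.02 reads 92.7%, 92.8% and 92.8% of the values of tumors 1, 2 and 3 were whole. For Epas1 the length was refitted so that all 3 values gave whole reads. No test was made, since there is a single group. The members and gene lists were chosen with earlier results of these data known. Besides the 10 genes, the 3 most abundant genes and the 2 with the widest ratio between tumors (mean of at least 1 FPKM) were eligible to be named from each pathway list, and any gene from a marker list described. Alternatives were other scalings, folds of 1.5 and 3, thresholds of 0.2 and 5 FPKM, FPKM + 1, no filter, repeated symbols summed and each tumor left out. Those for the numbers of genes highest in tumor 2, at least 2-fold higher there than in both others, or lowest in tumor 3 were chosen after seeing the data, as was the recount of the lists by scaling. The steps were tested on simulated data. Calculations ran in Python 3.11.15 with SciPy 1.17.1, pandas 2.3.3 and NumPy 2.4.6, and plots in matplotlib 3.10.9.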

Additional observations from a re-analysis of the deposited data

How the results depend on the processing

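No paired analysis was possible because the RNA-seq samples form a single group and no result comes from a test. Among the 8 genes with a mean of at least 1 FPKM, a fold of 3 in place of 2 lowered the number of genes with such a ratio between highest and lowest tumor from 7 to 4, those higher in tumor 2 than in tumor 1 from 4 to 2, in tumor 1 than in tumor 3 from 4 to 2, in tumor 2 than in tumor 3 from 5 to 3 and in tumor 2 than in both others from 2 to 1. A fold of 1.5 gave 4 genes for this last number, and 1 gene, Epas1, higher in tumor 1 than in tumor 2 in place of 0. With 1 added to each FPKM, 2 genes were higher in tumor 2 than in tumor 1 and 1 higher than in both others. Without the filter, 4 of the 10 genes were higher in tumor 2 than in both others and 2 higher in tumor 3 than in tumor 1. With 1 tumor left out and the required mean applied again, the number with a 2-fold ratio between highest and lowest tumor was 4 to 5. The genes it covers then differ from the 8. Epas1 fell below that mean without tumor 1 and Vegfa and Bnip3 without tumor 2, while Egln3 reached it without tumor 1 or tumor 3. The number of the 10 genes at or above 1 FPKM in every remaining tumor was 5 to 8, against 5. It was also 8 in all 3 tumors with a threshold of 0.2 FPKM. The other 50 values of such numbers under an alternative stayed within 1.5 times the main number. Rescaling to a sum of 1000000 shifted the log2 ratio of all genes by -0.13 for tumor 2 over tumor 1, by 0.11 for tumor 2 over tumor 3 and by 0.25 for tumor 1 over tumor 3, and median-of-ratios factors by 0.17, -0.06 and -0.23. The mean FPKM of each of the 10 genes moved by less than 1 SD except under the former, which changes the unit. Few reads limit Adm, Egln3 and, in tumor 3, Vegfa.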

Other observations

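Markers of other cells set the 3 tumors apart in further ways. The 8 B-cell markers, all with a mean of at least 1 FPKM, summed to 65.5, 51.3 and 124.7 FPKM in tumors 1, 2 and 3, with Cd79a as the most abundant, at 23.1, 7.31 and 49.0 FPKM. Cd22, an inhibitory receptor best known from B-cells, was highest in tumor 2, with 5.84, 36.5 and 13.9 FPKM, whereas the 7 others were all lowest there, at least 2-fold below both other tumors. Without Cd22 the sums were 59.7, 14.8 and 110.9 FPKM. The 9 neutrophil markers, of which 3 had such a mean, summed to 42.4, 1.91 and 18.5 FPKM, with S100a9 as the most abundant, at 22.6, 1.01 and 10.4 FPKM. Elane had no read in any tumor. The 6 epithelial markers, of which 2 had such a mean, summed to 40.5, 2.80 and 0.963 FPKM. Almost all of this came from Cldn4, for a tight junction protein, and Cdh1, for E-cadherin, in tumor 1. Cldn4 had 1467 reads and 26.3 FPKM there, no read in tumor 2 and 1 read in tumor 3, so that it was at least 302-fold higher in tumor 1 than in tumor 2, with the floor of tumor 2 set at 3 reads. Cdh1 had 13.7, 0.934 and 0.410 FPKM. Among the keratin genes, Krt8 had 0.0162, 0.117 and 0.0240 FPKM, Krt18 had 0.116, 0.565 and 0.172 FPKM, and Krt19 had no read in any tumor. Reads were not recovered for Krt8 and Krt18. The values of Krt8 in tumors 1 and 3 lay below the FPKM of 3 reads and are not read as levels.

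Of 8 immediate early genes 6 had a mean of at least 1 FPKM, and 1 of these, Junb, was highest in tumor 2, or none after rescaling to equal sums, where 33.7% of all genes were as deposited. Junb was the most abundant, with 35.4, 37.1 and 31.0 FPKM. Among the 6 the widest ratios were those of Fos, with 0.747, 0.762 and 5.02 FPKM, and Jun, with 25.1, 6.51 and 10.8 FPKM. Fos reached the required mean only through tumor 3. Atf3, below that mean and named after its values were seen, had a wider ratio, with 0.725, 1.10 and 0.0671 FPKM on 48, 45 and 3 reads.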
